A study of Mus musculus with 3 samples.

Results

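Proliferating cells were sought among the islet cells of 3 mice as cells that carried RNA of genes used in DNA replication and mitosis. A cell counted as proliferating when at least 3 of 13 genes (Mki67, Top2a, Birc5, Cdk1, Ccnb1, Ccna2, Nusap1, Cenpf, Tpx2, Prc1, Ube2c, Stmn1 and Rrm2) had a unique molecular identifier (UMI, a tag that counts RNA molecules), with Mki67 or Top2a among them. Cells entered only with 500 or more genes detected and no more than 15% of UMIs from mitochondrial genes; of 7490 such cells, 98 met this rule (1.31%), and 6087 carried none of the 13 genes. The cells were thus chosen by the detection of these 13 genes, which are described and not tested. The mice were female, non-diabetic NOD-SCID animals aged 10 to 11 weeks, a strain whose Prkdc mutation leaves it without mature T and B lymphocytes. Each gave its islets of Langerhans to 1 single-cell 3′ library, and the mice form 1 group with no treatment, injury or transgene in their labels. All comparisons therefore lie between cells of the same animals.

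A dividing cell copies its DNA in S phase, separates the copies in mitosis (M), and prepares for that in the gap before it, G2. Cyclins and cyclin-dependent kinases drive the steps, E2F factors turn on replication genes, and the DREAM complex, MYBL2 and FOXM1 time the genes of G2 and mitosis. In the adult mouse islet, endocrine cells are known to divide rarely, and new beta cells come largely from division of existing ones. RNA of cycle genes is a sign that a cell had entered the cycle but no proof of it, and does not show that the cell divided.

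The libraries of mice 1, 2 and 3 held 32389170, 48076507 and 57849496 UMIs over 6005, 4444 and 5713 barcodes, of which 1145, 2705 and 3640 were kept. Among kept cells, 21 barcodes occurred in more than 1 library, and 14 of these were shared by mice 1 and 2. One of those 14 was proliferating in both mice, with 1002 and 1750 UMIs and the dendritic-like class in both. Of the 575 genes of the shallower cell, 262 were also found in the deeper one, and the pair may be 1 cell counted under 2 mice, which was not tested. Without shared barcodes there were 96 proliferating cells, and the pair held 0.0877% of the UMIs of all 98. The doublet caller marked 7 of the 98 cells (7.14%) and 317 of all 7490 (4.23%) at the rate expected for the loading.

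Mouse 1 had 24 proliferating cells, 2.10% of its kept cells, with an exact Clopper-Pearson 95% interval of 1.35% to 3.103%. Mouse 2 had 18, or 0.665%, with an interval of 0.395% to 1.05%. Mouse 3 had 56, or 1.54%, with an interval of 1.16% to 1.99%. Mouse 2 was the lowest, and its interval did not overlap those of the other two mice. The mean share was 1.43% ± 0.721 (SD, n = 3), and the intervals cover counting error only. Without shared barcodes the shares were 2.04%, 0.633% and 1.54%.

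The 13 genes were not found evenly. Stmn1, a tubulin-binding protein that destabilises microtubules, was detected in 87 of the 98 cells with a median of 16 UMIs, but also in 11.0% of all other kept cells. Top2a, the topoisomerase that untangles replicated DNA, was detected in 83 and Mki67, the gene of the Ki-67 antigen, in 82, against 1.03% and 1.04% of other cells. Cdk1, the kinase that starts mitosis, was detected in 76 cells, Cenpf, a kinetochore protein, in 67, and Prc1, a bundler of spindle microtubules, in 65. Ube2c, which helps to destroy mitotic cyclins, was found in 55 cells with up to 100 UMIs in 1 cell. The cyclin Ccnb1 was found in 43 cells and Rrm2, a subunit of ribonucleotide reductase, in 40, the lowest number of the 13. Summed over the proliferating cells of mice 1, 2 and 3, Mki67 reached 194, 144 and 299 CPM (the usual scaling of UMIs to a fixed total), and Top2a reached 224, 174 and 376 CPM.

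Some proliferating cells met the rule narrowly and others fully. All 13 genes were detected in 19 cells and 12 genes in 16, while 13 cells had 3 genes, 11 had 4 and 10 had 5. Just outside the rule, 18 cells had at least 3 of the genes without Mki67 or Top2a, and 26 cells had 2 genes with Mki67 or Top2a among them. The 18 cells had a median of 42.5 UMIs of other G2/M genes per 10000, which lies above the 12.5 of the 13 cells just inside. The 26 cells had a median of 7.63. Among the cells outside the rule, 1305 (17.7%) carried at least 1 of the 13 genes, from 6.42% of acinar-like and 10.4% of beta-like cells to 47.8% of duct-like and 53.75% of Schwann-like cells.

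Proliferating cells were deep. Their median was 37077.5 UMIs in mouse 1, 28383 in mouse 2 and 20096 in mouse 3, against 5086, 5234.5 and 10675 in cells with none of the 13 genes. The median number of genes was 5590, 5455.5 and 4268.5, against 1210.5, 1114 and 2867. In each mouse the proliferating cells were the deeper ones, by 7.29, 5.42 and 1.88 times in UMIs. The log2 ratio of the medians was 2.07 ± 1.03 (SD, n = 3), in 3 of 3 mice, with a two-sided exact sign-flip p of 0.25, the smallest that 3 mice allow. Detection of a gene grows with depth, so the rule itself favours deep cells. By class, median UMIs were not higher in dendritic-like (3344 against 4939) and gamma-like cells (20609.5 against 20961). Nor were they in the 1 acinar-like cell (3508 against 3795), while the other classes had higher medians. The range over all proliferating cells was wide, from 900 to 195793 UMIs. Of them, 15 had under 5000 UMIs and 76 had 10000 or more. In 9 cells, 8 of them from mouse 3, under 1% of the UMIs were mitochondrial, and these cells held 1825 to 7151 UMIs.

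**Figure D1:**
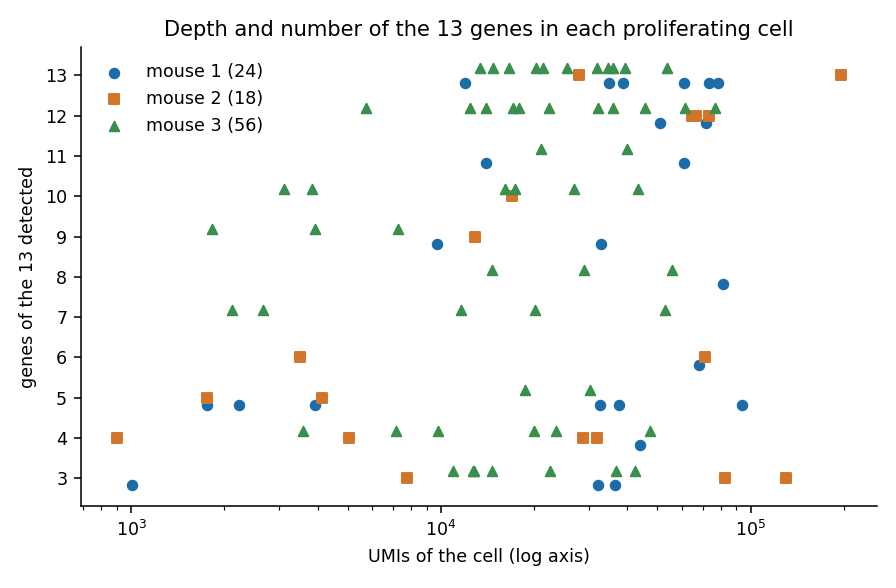
Each point is 1 of the 98 proliferating cells, with its UMIs on a log axis and the number of the 13 genes detected in it, by mouse; points of the same number are set apart slightly by mouse. Cells with all 13 genes (19 cells) and cells with 3 to 5 (34 cells) both occur above 10000 UMIs, and the 46 cells with 10 or more genes had a median of 32050 UMIs.

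When every cell was thinned to 2000 UMIs, 48 of 6913 cells met the rule. The shares were then 1.10%, 0.235% and 0.918% in mice 1, 2 and 3, with mouse 2 again lowest. The share was lower than the unthinned one in each mouse, and the mean fell from 1.43% to 0.7504% ± 0.455 (SD, n = 3).

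Classes came from clusters of lineage markers that hold none of the 13 genes. Clusters also differed in depth, which the rule favours, so class and rule are not independent. The 98 cells spread over the endocrine, duct, immune and vascular classes, with 28 alpha-like, 14 duct-like, 13 beta-like, 12 dendritic-like, 9 delta-like, 7 macrophage-like, 6 gamma-like, 4 endothelial-like and 1 acinar-like cells, and 4 in a cluster without a name. None of 167 pericyte-like, 63 fibroblast-like or 80 Schwann-like cells met the rule, which allows shares of up to 1.80%, 4.76% and 3.75%. All 4 endothelial-like cells were among those marked as doublets.

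Duct-like cells, which line the exocrine ducts and are marked by Krt19 and Sox9, were proliferating at 2.94% in mouse 1 (3 of 102), 3.95% in mouse 2 (6 of 152) and 3.55% in mouse 3 (5 of 141). These 3 values were close to each other, at 3.48% ± 0.507 (SD, n = 3). Beta-like cells, the insulin producers, were at 0.270% (1 of 370), 0.393% (3 of 764) and 1.81% (9 of 497), and delta-like cells, the somatostatin producers, at 1.01% (1 of 99), 0.524% (1 of 191) and 1.05% (7 of 664). The duct-like share lay above the beta-like share in 3 of 3 mice, by 2.65 ± 0.910 percentage points. It lay above the delta-like share by 2.62 ± 0.754 and above the endothelial-like share by 2.46 ± 1.45 points, also in 3 of 3 mice. Each of these 3 differences had a two-sided exact sign-flip p of 0.25 (0.417 adjusted over 5 comparisons), the smallest that 3 mice allow.

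Depth goes with that order. Proliferating duct-like cells had a median of 42762.5 UMIs, against 2688 in duct-like cells with none of the 13 genes. After thinning to 2000 UMIs, 3 of 334 duct-like cells met the rule, and the duct-like minus beta-like difference was 0.726 ± 1.498 percentage points. Among cells with at least 5000 UMIs it was 5.84 ± 3.57, and the order of the classes therefore depended on how depth was treated.

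Alpha-like cells, the glucagon producers, gave the largest number of cells and the most uneven shares. In mouse 1, 13 of 202 met the rule (6.44%), in mouse 2, 1 of 277 (0.361%), and in mouse 3, 14 of 1248 (1.12%). Mouse 1 stood far above the other two, and its interval of 3.47% to 10.8% did not overlap theirs. Most came from 1 of the 4 alpha-like clusters, with 22 of its 892 cells, at 9.47% in mouse 1 (9 of 95) and 1.65% in mouse 3 (13 of 787). The alpha-like minus beta-like difference was 6.17, -0.0317 and -0.689 percentage points in mice 1, 2 and 3, with an exact p of 1. The duct-like minus alpha-like difference also changed sign between mice, at -3.49, 3.59 and 2.42 points, with an exact p of 0.75.

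Beta-like proliferating cells lay in the deep part of their class. The cluster with a median of 40124.5 UMIs held 12 of the 13, at 1.04%, 1.23% and 2.25% of its cells in mice 1, 2 and 3. Gamma-like cells, the pancreatic polypeptide producers, were proliferating only in mouse 3 (6 of 265, 2.26%), where nearly all gamma-like cells were found; mice 1 and 2 had 21 and 11 such cells. Of the immune classes, dendritic-like cells were at 25.0% (3 of 12), 3.77% (2 of 53) and 8.54% (7 of 82), and macrophage-like cells at 4.55%, 1.89% and 4.07%. Without shared barcodes the dendritic-like counts were 2 of 8, 1 of 49 and 7 of 82. The dendritic-like name was weak in mice 1 and 2, as given below.

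**Figure D2:**
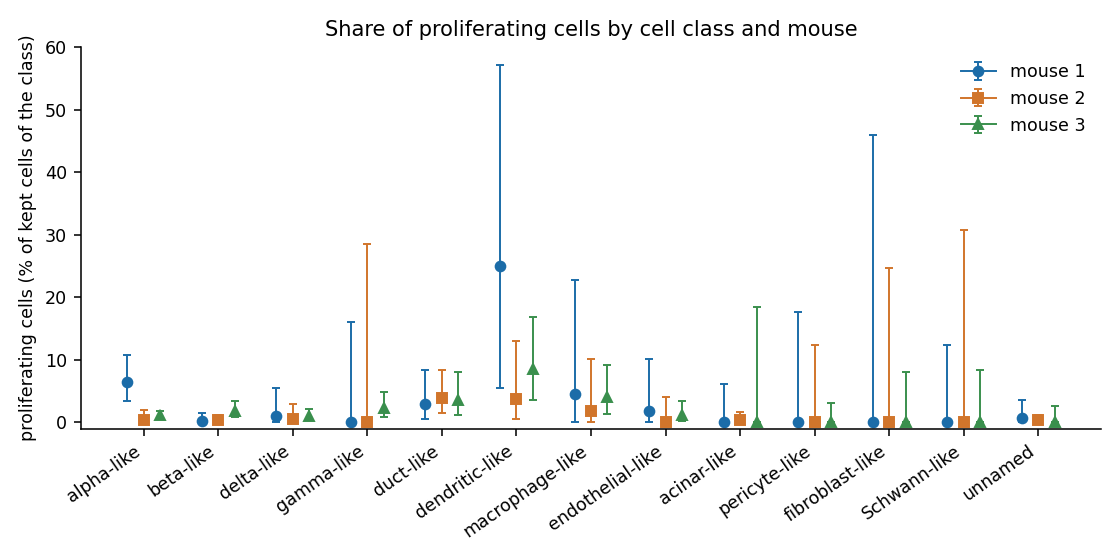
The share of kept cells that were proliferating is given by class (x axis) and mouse (points), in percent, with exact 95% binomial intervals as bars. Duct-like cells lie between 2.94% and 3.95% in the 3 mice, while alpha-like cells lie at 6.44% in mouse 1 and at 0.361% and 1.12% in mice 2 and 3.

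To describe the cells beyond the rule, each was set beside up to 5 cells with none of the 13 genes, of the same mouse and class and nearest in UMIs, 481 matched cells in all. Matching on depth was close for most endocrine cells, such as beta-like cells with medians of 52809 and 52491 UMIs. The exception was the delta-like cell of mouse 2, with 130133 UMIs against a matched median of 41313. It was poor for duct-like cells (42762.5 against 6372.5) and macrophage-like cells (17021 against 11239), for which no equally deep cells were left.

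The hormone of the class was a main transcript in the alpha-like and beta-like proliferating cells, with exceptions among delta-like and gamma-like ones. Glucagon (Gcg) made up a median of 36.7% of the UMIs of alpha-like proliferating cells, from 23.2% to 52.7%, against 46.3% in matched cells. By mouse it was 34.3%, 39.9% and 38.1%, against 45.6%, 51.0% and 46.4%, lower than the matched median in each mouse. Insulin (Ins1 and Ins2 together) made up 63.7% of beta-like proliferating cells, from 47.6% to 66.2%, against 66.8%. Somatostatin (Sst) made up 15.6% of delta-like ones, from 4.46% to 19.0%, against 20.4%. Pancreatic polypeptide (Ppy) made up 17.0% of gamma-like ones, from 0.171% to 42.0%, against 27.9%. Hormones helped to define the classes, so these medians are a description with no test, and the ranges of proliferating and matched cells overlap.

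A few cells held RNA of another class's hormone. In 16 proliferating cells a hormone that was not that of the class took at least 5% of the UMIs, among them 4 gamma-like, 4 unnamed, 2 delta-like and 2 dendritic-like cells. One delta-like cell of mouse 2, with 130133 UMIs, held 20.5% insulin and 8.16% Sst, and the delta-like cell of mouse 1 held 5.39% insulin and 4.46% Sst. One duct-like cell of mouse 2 held 14.97% Gcg in 71443 UMIs. In 2 of the 6 gamma-like cells, Gcg took 26.8% and 35.4% of the UMIs and Ppy 0.171% and 1.27%, so the data go against the gamma-like name for these cells. Of the 16, 2 were marked as doublets, and the part of free RNA or joined cells was not tested.

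**Figure D3:**
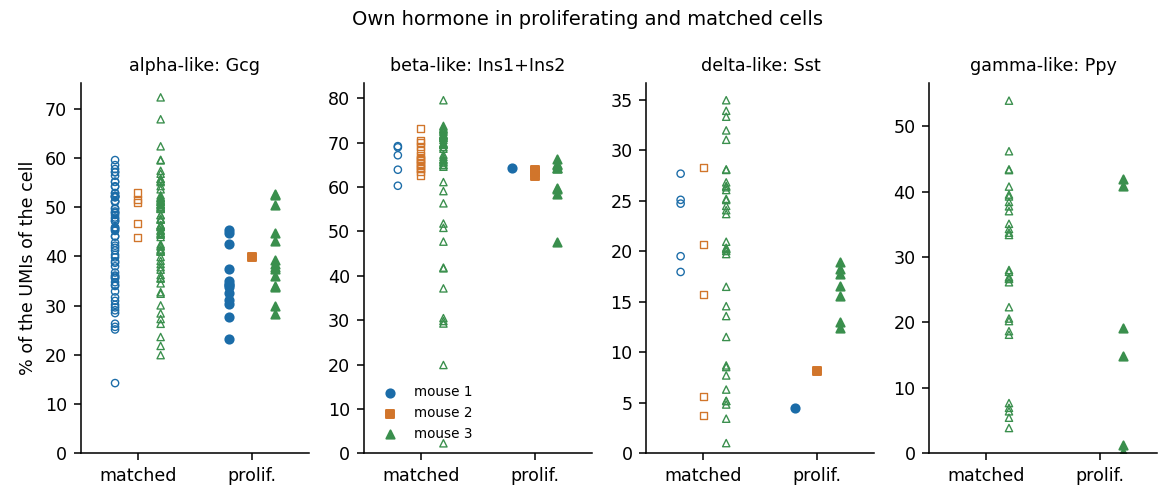
The y axis gives the class's own hormone in percent of the UMIs of each cell, for matched cells (open) and proliferating cells (filled), by mouse. The medians of proliferating cells are 36.7% (alpha-like), 63.7% (beta-like), 15.6% (delta-like) and 17.0% (gamma-like), and those of matched cells are 46.3%, 66.8%, 20.4% and 27.9%, with overlapping ranges.

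Duct-like proliferating cells carried the markers of ducts: Spp1 (osteopontin), Krt19, Sox9 and Clu were detected in all 14. Spp1 stood at 19318, 23257 and 22244 CPM in mice 1, 2 and 3, against 16955, 13567 and 17168 in matched duct-like cells. Sox9, the transcription factor of duct cells, stood at 788, 714 and 517 CPM against 362, 277 and 460. Krt19 went the other way, at 220, 271 and 420 CPM against 222, 293 and 548. Clu stood at 15820, 11239 and 11792 CPM against 9448, 8337 and 14751, lower in mouse 3 only. Neurog3, the factor that starts endocrine differentiation in the embryo, had 0 UMIs in the 14 duct-like cells and in the 28 alpha-like and 13 beta-like ones. It had 10 UMIs in 3 of the 9 delta-like proliferating cells (38.5 CPM against 38.8 in matched cells). All 12 dendritic-like cells had the class II genes Cd74, H2-Ab1 and H2-Aa, but the pan-leukocyte gene Ptprc was found in none of 3, 1 of 2 and 6 of 7 cells in mice 1, 2 and 3, and Flt3 only in mouse 3. The dendritic-like name is therefore weak in mouse 1, where the 3 cells were shallow, and also in mouse 2. There Cd74 and H2-Ab1 went down to 1 UMI in a cell. Insulin took a median of 51.1% of the UMIs of the matched dendritic-like cells of mouse 2. All 7 macrophage-like cells had the macrophage genes C1qa, Lyz2 and Csf1r.

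The phase of each cell was read from genes outside the rule, 39 genes of replication and nucleotide supply for S phase and 69 genes of kinases, spindle and centromere for G2/M. Proliferating cells had medians of 17.2 S and 52.3 G2/M UMIs per 10000, against 2.55 and 4.14 in matched cells. At least 1 of these levels lay above the 99th percentile of the mouse's matched cells in 22 of 24, 14 of 18 and 49 of 56 cells. That percentile was taken over all classes of a mouse together, so a cell under it, as 2, 4 and 7 cells were, may still lie above matched cells of its own class. Since these genes act in the same phases as the 13, the levels describe what the rule picked.

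Most of the cells held more UMIs of the G2/M list than of the S list, which has fewer genes (39 against 69). The G2/M level was over 3 times the S level in 45 cells, and the S level was the higher in 18. The S list took a median of 27.9% of the S and G2/M UMIs of a cell (its S share), against 38.5% in matched cells. Pooled over the cells of a mouse, the S list took 30.6%, 23.7% and 25.9% of the S and G2/M UMIs together, 26.7% ± 3.53 (SD, n = 3), and 21.4% ± 2.67 after thinning. The 46 cells with 10 or more of the 13 genes had a median S share of 14.6% and none with S above G2/M. The 34 cells with 3 to 5 genes had a median S share of 50%, with S above G2/M in 16. Most of the 13 genes act in G2 and mitosis, and the part of that in these shares was not tested.

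By class, delta-like cells had medians of 38.4 S and 84.2 G2/M UMIs per 10000, with a median S share of 43.8% (44.4% in matched cells). Alpha-like cells had 21.7 and 53.8, with a median S share of 39.4% (37.4% in matched cells) and S above G2/M in 8 of 28. The median S shares of these 2 classes were thus near those of their matched cells. Beta-like cells had 3.95 and 26.8, with a median S share of 10.7% (43.5% in matched cells). Insulin takes most of the UMIs of a beta-like cell, which lowers the level of every other gene on this scale, so levels per 10000 are not compared between classes, only shares. Dendritic-like cells had the lowest median S share after beta-like cells among classes of over 6 cells, at 18.8% (33.3% in matched cells). Macrophage-like cells had the highest, at 50% (37.5% in matched cells). With 7 to 28 cells of unequal depth per class, these shares are a description.

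**Figure D4:**
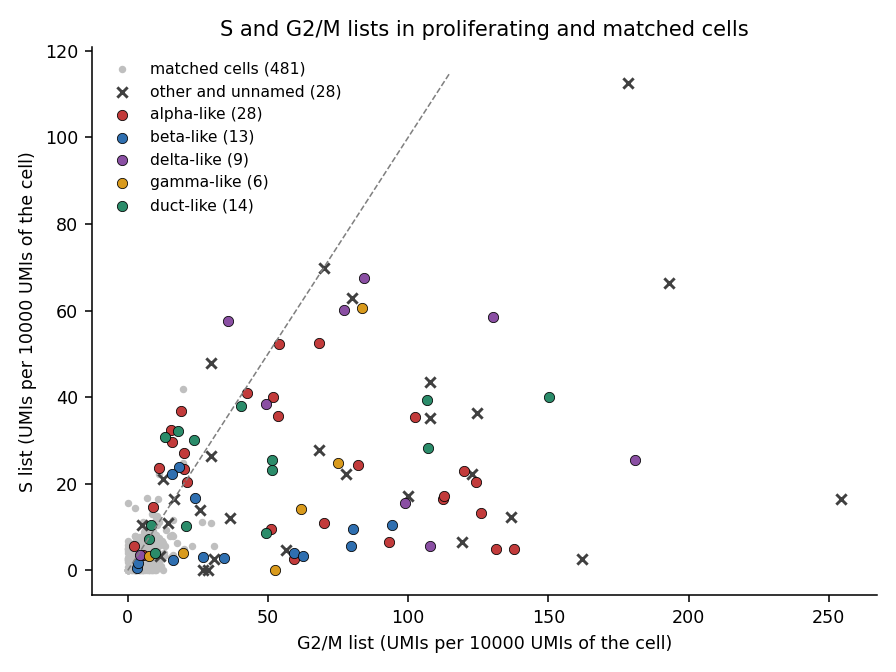
Each point is a cell, with the G2/M list on the x axis and the S list on the y axis, in UMIs per 10000 UMIs of the cell; grey points are the 481 matched cells and the dashed line marks equal levels. Proliferating cells reach 254 on the G2/M axis and 112 on the S axis, and 18 of the 98 lie above the line.

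Genes were compared in most depth for the 56 endocrine-like proliferating cells against 280 matched cells, with UMIs summed per mouse, because their class mix was closer than that of all cells. In mouse 2 it was not close, since the single delta-like cell gave 24.5% of the proliferating UMIs against 9.60% from its matched cells. The proliferating sums held 699111, 530789 and 968993 UMIs in mice 1, 2 and 3, from 15, 5 and 36 cells. Levels below are CPM scaled by TMM, a correction for library composition. Those given for a single class are CPM without TMM and cannot be set beside the scaled ones. edgeR's quasi-likelihood test with the mouse as a block called 8.41% of 8076 genes higher and 4.09% lower at a Benjamini-Hochberg adjusted p of 0.05. The genes of the cycle came with the rule, and their counts are given with no reading and no p. All tested members were called higher for replication licensing and forks (22 of 22), cyclins and mitotic kinases (19 of 19) and centromere and kinetochore (19 of 19), as were 27 of 28 spindle genes and 8 of 10 genes of nucleotide supply. Many had passed the filter on low counts through the proliferating cells alone: 14 of the 19 cyclins and kinases and 18 of the 28 spindle genes had under 10 UMIs in matched cells.

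Hmmr, a spindle-pole protein, stood at 111, 141 and 160 CPM in mice 1, 2 and 3, with 349 UMIs against 0 in matched cells. Pbk, a mitotic kinase, stood at 70.6, 124 and 144 CPM, and Cenpe, the kinesin that carries chromosomes along the spindle, at 102, 79.6 and 70.1 CPM, both with 0 UMIs in matched cells. Set against a floor of 3 UMIs over all matched cells, the 3 genes were at least 420-fold, 348-fold and 247-fold higher. Ckap2l, a spindle protein, was at least 167-fold higher, and Slfn9, a Schlafen family gene, at least 187-fold higher. Slfn9 was the most uneven of these, with 93.2, 25.9 and 58.0 CPM.

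Others had 1 to 4 UMIs in matched cells. Ccnb2, a B-type cyclin of mitosis, stood at 66.8, 72.2 and 77.0 CPM, with 181 UMIs against 1, a ratio of 654 with a counting interval of 116 to 25969. Cdc20, an activator of the complex that ends metaphase, stood at 57.9, 99.9 and 141 CPM with 263 UMIs against 3, a ratio of 317 (107 to 1546). Aspm, Knl1, Ckap2 and Ect2, which act at spindle poles, kinetochores, microtubules and the cleavage furrow, had ratios of 313, 298, 273 and 459. Cenpa, the histone H3 variant of centromeres, stood at 92.0, 87.0 and 119 CPM, with 257 UMIs against 4. These 12 genes were picked as the largest differences, so their separation by mouse is fixed by that choice.

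Replication genes differed by less, since matched cells also held them. Mcm6, a subunit of the replicative helicase, stood at 75.6, 16.7 and 58.0 CPM against 3.15, 3.67 and 2.86, a log2 difference of 4.09 ± 0.312 (SE). Pclaf, a partner of the sliding clamp, stood at 81.9, 25.9 and 114 against 0.699, 1.22 and 0.880 CPM, and Tyms, which makes thymidylate, at 79.4, 59.2 and 112 against 5.94, 4.28 and 5.94. Mouse 2 was the lowest of the 3 in each of these genes, and its 5 cells were few. Of these, the alpha-like cell had an S share of 6.48% and the 3 beta-like cells a median of 6.24%. The delta-like cell held the S list near the level of its matched cells, and the part of these cells in the low values was not tested. Among chromatin genes, H2afz, a histone H2A variant, stood at 949, 929 and 1333 CPM against 220, 232 and 201, and Tubb5, a beta-tubulin, at 426, 318 and 738 against 47.5, 20.2 and 54.1. Foxm1, the factor of G2/M genes, had 33 UMIs against 3, and E2f1, a factor of S phase genes, had 77 against 28.

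The promoters of cycle genes are known for short motifs, and a few are printed because the genes behind them are those that set the proliferating cells apart. Shown are the 250 bases before the RefSeq transcript start (GRCm38.p6, all on the minus strand, written 5′ to 3′ along the gene), with 3 kinds of motif in capitals, searched on both strands. CCAAT or its complement ATTGG is the NF-Y box, TTTGAA or TTTAAA and their complements TTCAAA and TTTAAA are the CHR element of the DREAM complex, and TTTCCCGC, TTTGGCGC, TTTCGCGC and TTTGCCGC and their complements stand for E2F. Hmmr (chr11:40733438-40733687) has 5 NF-Y boxes. Ccnb2 (chr9:70421555-70421804) has 3 with 1 CHR, and Cdc20 (chr4:118437344-118437593) has 2 with 1 CHR. Mcm6 (chr1:128359706-128359955), the replication gene, has 2 NF-Y boxes and 3 E2F matches, of which a pair overlap.
Hmmr: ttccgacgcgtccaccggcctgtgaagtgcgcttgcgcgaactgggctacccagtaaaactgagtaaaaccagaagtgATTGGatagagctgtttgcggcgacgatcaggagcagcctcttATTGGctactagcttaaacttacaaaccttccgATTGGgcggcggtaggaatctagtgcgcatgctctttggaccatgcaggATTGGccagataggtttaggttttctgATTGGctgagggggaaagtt
Ccnb2: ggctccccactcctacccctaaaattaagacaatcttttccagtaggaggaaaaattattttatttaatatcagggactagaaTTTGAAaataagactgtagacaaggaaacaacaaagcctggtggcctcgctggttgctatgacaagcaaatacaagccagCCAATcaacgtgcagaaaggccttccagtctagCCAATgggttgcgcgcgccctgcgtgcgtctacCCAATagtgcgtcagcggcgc
Cdc20: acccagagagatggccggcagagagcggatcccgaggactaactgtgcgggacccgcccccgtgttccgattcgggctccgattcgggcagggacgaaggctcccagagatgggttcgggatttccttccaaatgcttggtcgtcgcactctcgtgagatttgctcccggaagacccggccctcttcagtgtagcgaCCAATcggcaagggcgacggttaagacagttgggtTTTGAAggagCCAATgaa
Mcm6: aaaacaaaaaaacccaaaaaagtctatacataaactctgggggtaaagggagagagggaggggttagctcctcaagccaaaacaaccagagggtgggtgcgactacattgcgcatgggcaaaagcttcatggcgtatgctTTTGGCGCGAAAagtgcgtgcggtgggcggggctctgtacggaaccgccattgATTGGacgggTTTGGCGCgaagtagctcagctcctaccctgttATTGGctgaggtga

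Of the 12 genes named as higher, 11 had RefSeq windows, 12 in all. An NF-Y box lay in 83.3% of these windows and a CHR in 66.7%, against 33.8% and 25.2% of all 32851 windows of the same length, and none held an E2F match. Among 28 windows of replication genes, 28.6% held an E2F match and 17.9% a CHR, against 1.86% and 25.2% of all windows. An NF-Y box lay in 64.3% of the replication windows. Spindle genes held a CHR in 50% of 24 windows and E2F in 4.17%, while centromere and kinetochore genes, which are also mitotic, held a CHR in 15.8% of 19 windows, below the share of all windows. A match is a description of letters in these windows and no evidence of binding.

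The brakes on the cycle moved in both directions. Of 18 genes in the list, 14 were tested, 4 were higher and 1 was lower, beside 8.41% and 4.09% of all genes tested. Cdkn2c (p18), an inhibitor of CDK4 and CDK6, stood at 54.2, 117 and 94.3 CPM in mice 1, 2 and 3 against 7.34, 7.34 and 7.70. The log2 difference was 3.49 ± 0.221 (SE), and every proliferating value lay above every matched one. Cdkn2d (p19), of the same family, stood at 46.6, 77.7 and 114 CPM against 16.1, 14.7 and 14.5 (log2 difference 2.42 ± 0.226). The part of cycle phase in both differences was not tested.

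Cdkn1a (p21), the inhibitor that p53 turns on, stood at 166, 49.97 and 163 CPM against 103, 25.1 and 77.0. The difference of 0.91 ± 0.153 (log2, SE) had the same direction in 3 of 3 mice. It passed with the mouse as a block (edgeR adjusted p = 6.14e-05) and not without the block (edgeR adjusted p = 0.598). Summed by class, Cdkn1a was higher in all 4 endocrine classes, given here without TMM and without a test. Alpha-like cells held 226 against 116 CPM (detected in 21 of 28) and beta-like cells 40.01 against 14.9 (6 of 13). Delta-like cells held 165 against 41.2 (8 of 9). The gamma-like level of 277 against 29.5 came from 30 UMIs in 2 of 6 cells. Fzr1, an activator of the complex that degrades mitotic cyclins, was called higher in the full fit (log2 1.21 ± 0.317), with 2 of 3 mice higher, and not without mouse 3. Btg2, an anti-proliferative gene that also responds at once to stress, fell by 0.94 ± 0.161 on the log2 scale (edgeR adjusted p = 0.000103), from 524, 326 and 553 to 190, 244 and 294 CPM. Cdkn1b (p27) stood at 66.8, 40.7 and 57.1 CPM against 49.99, 58.1 and 48.6 (log2 0.12 ± 0.183, edgeR adjusted p = 0.739). Cdkn2a (p16 and Arf) had 20 UMIs in 9 of 28 alpha-like proliferating cells and 2 UMIs in their 140 matched cells.

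The D-type cyclins, which couple growth signals to the cycle, did not pass the test. Ccnd2, the main D-type cyclin of mouse beta cells, stood at 478, 479 and 312 CPM against 464, 491 and 504 (log2 -0.23 ± 0.148, edgeR adjusted p = 0.347). Ccnd1 stood at 26.5, 51.8 and 41.5 CPM against 34.6, 30.6 and 44.6 (log2 0.04 ± 0.213, edgeR adjusted p = 0.929). The 2 states overlapped for both genes. Their partner Cdk6 had 1 UMI in all 28 alpha-like cells and 0 in the other 28 endocrine-like ones, while 10 of 14 duct-like proliferating cells held it (53.2 CPM, against 44.8 in matched duct-like cells). Ccnd1 was found in all 14 duct-like proliferating cells, at 647 CPM against 387 in matched ones. Of the 10 tested genes of this list 1 rose and 1 fell, beside 8.41% and 4.09% of all genes. Vgf, a granule peptide precursor, rose (log2 1.40 ± 0.231, edgeR adjusted p = 0.000542). Irs2, an adaptor of the insulin receptor, fell by 0.70 ± 0.185 on the log2 scale (edgeR adjusted p = 0.00938). Without mouse 1 neither passed (edgeR adjusted p = 0.0549 for Vgf and 0.293 for Irs2), nor did Irs2 without mouse 3 (0.16). Vgf stood at 214, 24.1 and 77.9 CPM against 52.1, 20.2 and 37.2. The prolactin receptor Prlr was found in all 13 beta-like proliferating cells at 337 CPM, against 332 in matched cells.

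Genes of beta-cell identity and secretion were lower in part. Of 25 tested genes, 13 fell and none rose (median log2 difference -0.50, against -0.06 over all genes), beside 4.09% of all genes called lower. Beta-like cells were 13 of the 56 cells pooled here, and no fit was made within them. In alpha-like cells of mice 1 and 3 alone, 3 of 19 tested genes fell, beside 3.75% of all genes. The median log2 difference there was -0.36, against -0.04 over all genes. Slc2a2, the glucose transporter of mouse beta cells, stood at 7.56, 109 and 54.5 CPM against 61.5, 319 and 145, a fall of 1.68 ± 0.189 on the log2 scale (edgeR quasi-likelihood adjusted p = 1.13e-07). G6pc2, an islet glucose-6-phosphatase, fell by 1.35 ± 0.161, with 25.2, 152 and 59.7 CPM against 86.0, 327 and 155 (edgeR adjusted p = 1.99e-07). Within each mouse the proliferating value of both genes lay below the matched one, as the choice of named genes required. Mouse 2 was the highest in both states. Ins2 fell by 0.57 ± 0.140 and Ins1 by 0.45 ± 0.143 on the log2 scale (edgeR adjusted p = 0.00499 and 0.0343). The factors Nkx6-1 (fell by 0.66 ± 0.181, edgeR adjusted p = 0.013) and Mafa (fell by 0.50 ± 0.163, adjusted p = 0.042) also fell, while Pdx1 stood at 18.9, 72.2 and 46.7 CPM against 19.9, 81.4 and 46.6 (adjusted p = 0.854). Without TMM 3 of the 25 passed and without the block none did. In mouse 2 beta-like cells gave 62.9% of the proliferating UMIs and 76.1% of the matched ones, and without mouse 1, 2 or 3 in turn 5, 6 and 7 of the 25 passed. Slc2a2 and G6pc2 passed without each mouse, while Ins1 and Ins2 did not pass without mouse 1 or mouse 2, Nkx6-1 not without mouse 2 or 3, and Mafa not without any 1 of the 3.

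The dissociation response is a set of early genes that enzymes and warmth switch on during isolation. Of 16 tested genes 8 fell and none rose, beside 4.09% of all genes called lower, with a median log2 difference of -0.63. Socs3, an inhibitor of cytokine signals, stood at 10.1, 18.5 and 22.5 CPM against 99.6, 63.0 and 47.7, a fall of 1.91 ± 0.296 on the log2 scale (edgeR quasi-likelihood adjusted p = 0.000255). Junb, a member of the AP-1 family, stood at 233, 254 and 298 CPM against 763, 375 and 596 and fell by 1.10 ± 0.169 (edgeR adjusted p = 3.45e-05). Zfp36, which destabilises messenger RNA, fell by 1.29 ± 0.183 (edgeR adjusted p = 4.2e-06) and Atf3, a stress factor, by 1.21 ± 0.241 (adjusted p = 0.00774). For Socs3 and Junb, which were picked as large falls seen in every mouse, no proliferating value reached a matched one. Fos itself stood at 878, 1072 and 1299.9 CPM against 2173, 902 and 2248, lower in mice 1 and 3 only (edgeR adjusted p = 0.203). Without mouse 1, 2 or 3 in turn 6, 14 and 5 of the 16 fell. In alpha-like cells of mice 1 and 3 alone, where 8.78% of 7811 genes were called higher and 3.75% lower, 14 of the 16 fell, while over all endocrine-like cells 2 of the 16 passed without the block and 4 without TMM.

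**Figure D5:**
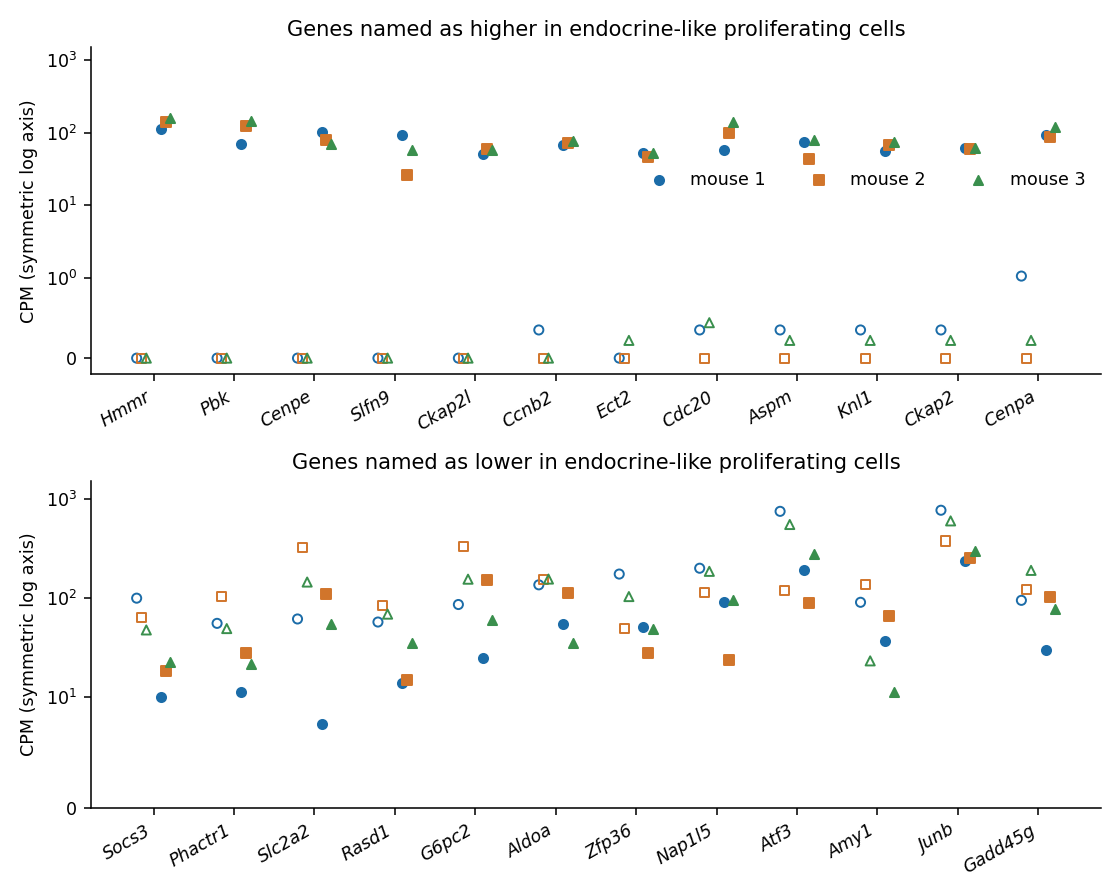
Levels (y axis, CPM scaled by TMM, symmetric log) of the 12 genes named as higher and the 12 named as lower in endocrine-like proliferating cells (filled) and their matched cells (open), by mouse. Hmmr, Pbk, Cenpe, Slfn9 and Ckap2l are at 0 in matched cells of every mouse, while the genes named as lower differ by 1.04 (Gadd45g) to 1.91 (Socs3) on the log2 scale.

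The other genes named as lower came from several pathways. Aldoa, the glycolytic aldolase, fell by 1.30 ± 0.262 on the log2 scale, from 136, 153 and 155 to 54.2, 111 and 35.5 CPM (edgeR adjusted p = 0.00867). Of the 11 tested glycolysis genes it alone fell and 1 rose, Tpi1, beside 4.09% and 8.41% of all genes. Tpi1 rose by 0.67 ± 0.168 and did not pass without mouse 1 or mouse 3. Phactr1, Rasd1 and Nap1l5 fell by 1.69, 1.57 and 1.24. Amy1, an amylase gene of acinar cells, fell by 1.15 ± 0.187, with 36.5, 66.6 and 11.3 CPM against 90.5, 138 and 23.3, and is a marker of RNA from outside these classes. Gadd45g, a growth-arrest gene, fell by 1.04 ± 0.197 (edgeR adjusted p = 0.000777), and by an adjusted p of 0.0778 did not pass without mouse 3.

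Of 18 tested genes of ribosome biogenesis and Myc targets 5 rose and none fell, beside 8.41% of all genes called higher, led by Cad, which starts pyrimidine synthesis (log2 1.52 ± 0.330, edgeR adjusted p = 0.00159), Ran, a GTPase of nuclear transport and the spindle (log2 1.43 ± 0.145, adjusted p = 1.04e-08), and Nop56, a nucleolar protein (log2 1.17 ± 0.228, adjusted p = 0.00122). The median of the list was 0.26. Ran passed without each mouse, Cad not without mouse 1 or 3, and Nop56 not without mouse 3. Of 19 genes of oxidative phosphorylation 2 rose, a share near the 8.41% of all genes, Cycs by 0.61 ± 0.157 and Cox5a by 0.63 ± 0.156, neither of which passed without mouse 1 or mouse 3. Of 20 genes of protein folding and stress in the endoplasmic reticulum 1 rose (Creld2) and 3 fell, beside 8.41% and 4.09% of all genes. The 3 were Atf3, Xbp1 and Dnajb9, of which Atf3 alone passed without each mouse. Among 8 tested progenitor genes none passed in the endocrine-like cells, beside the same shares of all genes.

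Over all 98 cells against the 481 matched cells, edgeR called 9.79% of 9890 genes higher and 6.09% lower. Class mix differed here, since duct-like cells gave 20.1%, 30.3% and 13.02% of the proliferating UMIs in mice 1, 2 and 3 against 3.52%, 7.31% and 4.31% of the matched ones. Genes such as Sox9 (log2 2.31 ± 0.351, edgeR adjusted p = 0.0111) and Sox4 (log2 0.80 ± 0.169, adjusted p = 0.00428) were higher over all cells, and the part of class mix in this was not tested. Within duct-like cells Sox9 was also above its matched value in each mouse, while Krt19 was below it. The matched duct-like cells were shallower, with a median of 6372.5 UMIs against 42762.5, and the part of depth was not tested. In endocrine-like cells alone Sox4 was at -0.25 (edgeR adjusted p = 0.419). Against matched cells with at most 1 of the 13 genes Sox9 was at 0.38 (edgeR adjusted p = 0.463). In the 38 cells of the duct-like, immune, endothelial-like and acinar-like classes, 1.79% of 4310 genes were called higher and 2.53% lower. Ccnb2, Knl1 and Pbk had no UMI in matched cells, while most other tested genes of the mitotic lists had some. Ccnb2 stood at 62.5, 60.5 and 171 CPM (at least 43.1-fold higher) and Knl1 at 52.05, 60.5 and 91.0 CPM (at least 29.0-fold higher). The largest falls were of genes of other cells, Ins2 from 52392, 89066 and 25123 to 5482, 4047 and 3952 CPM (fell by 3.45 ± 0.411 on the log2 scale, edgeR adjusted p = 0.0222) and the acinar gene Sycn (fell by 3.01 ± 0.431, adjusted p = 0.0149). The matched cells were also the shallower ones over these classes together. In mouse 2, insulin took 48.6% of the summed UMIs of the matched dendritic-like cells. The part of such insulin-rich matched cells was not tested, nor that of free RNA, which takes a larger share of a shallow cell.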

How the data were processed

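Collagenase was perfused by way of the bile duct, islets of 3 mice were purified on a gradient, and their cells, freed with TrypLE, gave 3′ single-cell libraries, per the labels' protocols. The submitters' processing notes name Cell Ranger 2.2 and mm10, while the deposited matrix headers name software version 3.1.0. The authors deposited raw UMI counts per gene and barcode, and no column was left unused (0). Of 31053 feature IDs, 30934 matched GENCODE M21.

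Barcodes under 500 genes or over 15% mitochondrial UMIs were removed. The proliferating cells and all gene lists were chosen with earlier results of these data known. Doublets were scored with Scrublet at 0.8% per 1000 barcodes and left in; its automatic threshold marked 0.414% of cells and had not worked. Cells were clustered (scanpy 1.11.5, leidenalg 0.10.2, 20 components, 20 neighbours, resolution 1, seed 1) on 149 markers of 18 cell types. The 25 clusters were named from at least 3 markers among 30 leading genes, and the gamma-like tie was settled by the first 10.

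Summed counts per mouse and state were tested with edgeR 4.0.16 (R 4.3.3), glmQLFit and glmQLFTest, TMM, filterByExpr and Benjamini-Hochberg adjustment over all genes tested at 0.05, with the mouse as a block since both states come from the same animal. The fit on endocrine-like cells was added after seeing the data. No class had 5 members in every mouse, so the planned fit within each class could not be made; alpha-like cells of mice 1 and 3 were fitted alone, also added after seeing the data. Tested on simulated data, the endocrine-like fit recovered 19.4%, 89.6% and 100% of 2-, 4- and 8-fold changes among 7874 genes. Genes named were the 12 largest changes per direction past the threshold, outside the 13 genes, in the same direction in every mouse, of at least 1 on the log2 scale and 50 CPM, without numbered gene models, plus up to 4 per list; genes named beyond these, among them the D-type cyclins, Cdk6, Cdkn2a, Fos and Pdx1, were chosen after their values were seen. Intervals are exact Clopper-Pearson at 95% and floors are 3 counts; both cover counting error only. Promoter sequences are RefSeq's. Alternatives were DESeq2 1.42.0, other scalings, filters, thinning, other comparison cells and leaving out each mouse.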

Additional observations from a re-analysis of the deposited data

Results flagged for a closer look

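Barcodes removed by the filters on genes and mitochondrial UMIs also met the gene rule. They were 4 of 1739 removed barcodes in mouse 2 (0.230%) and 7 of 2073 in mouse 3 (0.338%), against 0.665% and 1.54% of kept cells. Both were flagged for a share above 3 counts over the removed barcodes (0.173% and 0.145%), a mark that any count above 3 exceeds. In mouse 1 it was 1 of 4860 (0.0206%, below its mark of 0.0617%), against 2.10% of kept cells. Most of the barcodes that met the rule were removed for over 15% mitochondrial UMIs, 1, 3 and 5 in mice 1, 2 and 3.

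Cdkn1a, H2-K1 and Irs2 moved in opposite directions in endocrine-like and other proliferating cells. They were picked for doing so in every mouse, and the difference itself was not tested. Cdkn1a was at 0.91 on the log2 scale in endocrine-like cells and at -0.72 in the others (edgeR adjusted p = 0.174), a difference of 1.63. By class and without TMM, Cdkn1a stood at 131 against 127 CPM in duct-like cells, so it did not fall there. It stood at 239 against 279 in dendritic-like, 211 against 242 in macrophage-like and 337 against 488 in endothelial-like cells. H2-K1, a class I antigen-presenting gene, was at 0.53 and -0.27 (edgeR adjusted p = 0.434 in the others), a difference of 0.79. Irs2 was at -0.70 and 0.46 (edgeR adjusted p = 0.55 in the others), a difference of -1.16.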

How the results depend on the processing

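The share of proliferating cells was 1.10% to 1.82% with each mouse left out, the log2 ratio of median UMIs 1.68 to 2.65, that of genes 1.39 to 2.25, and the S share 24.8% to 28.3% (21.4% thinned). The duct-like minus beta-like difference was 2.203 to 3.11 points with each mouse left out, 4.26 with at least 1000 genes, 5.84 with at least 5000 UMIs, 0.726 thinned and -0.0167 with classes set per cell, a setting that put 4357 cells in the acinar class. Over all proliferating cells 968 genes were higher and 602 lower. The higher count was 3327 with library size only, 480 with DESeq2, 508 with no replicate block, 1741 against all cells with none of the 13 genes, 41 thinned, 77 in non-endocrine classes, 480 without alpha-like cells, and 679 to 841 with each mouse left out. The lower count was 87 with library size only, 918 with no filter, 151 with DESeq2, 85 with no replicate block, 1315 against all cells with none, 296 against cells with at most 1 of the genes, 23 thinned, 330 and 109 in endocrine-like and other classes, 354 without alpha-like cells, and 321 to 445 with each mouse left out. In endocrine-like cells 679 genes were higher and 330 lower. These became 1595 and 63 with library size only (which moves the median of all genes from -0.06 to 0.30), 349 and 37 with DESeq2, and 387 and 26 with no replicate block. With each mouse left out they ranged from 339 to 935 and from 66 to 492. Reversed values on the log2 scale were Ero1lb 0.12 and Cpb1 0.36 thinned, Sox4 -0.25 in endocrine-like classes, Hes1 -0.13 against cells with at most 1 gene and -0.091 in non-endocrine classes, H2-K1 -0.27 in non-endocrine classes, Xbp1 0.019 and Ddit3 0.016 with library size only, and Iapp 0.53 in alpha-like cells. Of the 76 genes named in endocrine-like cells, 31 lost their call with no replicate block, 17 with DESeq2 and 11 with library size only. The causes were not tested. Depth limits the rule: shallow proliferating cells can be missed.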

Other observations

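Of 11 tested interferon and antigen-presentation genes in endocrine-like proliferating cells, 1 rose and 3 fell, beside 8.41% and 4.09% of all genes. H2-K1 rose, with 86.9, 92.5 and 135 CPM in mice 1, 2 and 3 against 83.6, 61.8 and 73.9 (log2 0.53, edgeR adjusted p = 0.0284), and did not pass without mouse 3. Ifi27, Ly6e and Irf1 fell by 0.91, 0.61 and 0.93 on the log2 scale (edgeR adjusted p = 0.00186, 0.0197 and 0.0301), and each lost its call without at least 1 mouse. Of 14 tested genes of apoptosis and p53, 2 fell and none rose, beside 4.09% and 8.41% of all genes. Gadd45b and Trp53inp1 fell by 0.88 and 0.78 on the log2 scale (edgeR adjusted p = 0.00312 and 0.00676). The first did not pass without mouse 3 and the second not without mouse 1.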
